A study of Mus musculus with 4 samples.

Results

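The genes described here are *Vwf*, which encodes von Willebrand factor, and 7 other genes through which the endothelium takes part in haemostasis: *F8*, *Plat*, *Tfpi*, *Procr*, *F2r*, *Cd63* and *Selp*. They were chosen by name, with earlier results of the same comparison of *Foxq1* cKO with wild-type brain ECs known, so their values are given as a description without a test. Of these 8 symbols, 6 were among the 12693 gene symbols in the table, and *F8* and *Selp* were not listed. All 6 listed members passed the filter on low values described with the test.

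Endothelial cells hold von Willebrand factor as long multimers in rod-shaped storage granules, the Weibel-Palade bodies, and release it to capture platelets and to carry coagulation factor VIII in plasma. The same cells keep blood fluid by exposing inhibitors of coagulation on their surface and by secreting tissue-type plasminogen activator, which starts the breakdown of fibrin. Thrombin acts on endothelial cells through protease-activated receptors, and this signal is a classical trigger of granule release. In the adult brain, *Vwf* is known as a gene of larger vessels and veins more than of capillaries.

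The study asked which transcripts of brain ECs depend on the forkhead transcription factor FOXQ1. RNA was sequenced from cells of the cerebral cortex at embryonic day 18 that had been sorted with an antibody to CD31, an endothelial surface protein encoded by *Pecam1*. All mice were C57BL/6, with 2 samples labelled wild-type (littermates without the Cre transgene, per the methods of the study) and 2 samples of the genotype FOXQ1fl/fl;Tie2-Cre, called *Foxq1* cKO. Tie2-Cre is driven by the promoter of *Tek* and is also known to act in blood lineages, so deletion in these mice need not be restricted to endothelial cells. The labels do not say whether the samples came from separate animals, so p-values measure only the spread between these samples.

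The values are normalized counts, that is, reads per gene divided by 1 size factor per sample. The listed genes held 21466436 and 17901203 reads in wild-type 1 and wild-type 2 and 15827166 and 16963866 reads in *Foxq1* cKO 1 and *Foxq1* cKO 2. A difference is given as the log2 fold change of *Foxq1* cKO over wild-type with its standard error, from limma on log2 of the normalized count plus 1, for the 12472 genes with a mean of at least 10. This scale understates differences of genes with low counts. For 1 gene in 2 against 2 samples, an exact permutation test cannot give a p below 0.333.

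As a check of the labels, *Foxq1*, the gene deleted here, had normalized counts of 353 and 297 in the wild-type pair of samples against 5.44 and 32.6 in the *Foxq1* cKO pair. Both *Foxq1* cKO samples were far below both wild-type samples, as the genotype in the labels would have it, with some reads left in each. *Foxq1* thus differed by a log2 fold change of -4.47 (standard error 1.04, unadjusted p = 0.00507 and adjusted p = 0.857 in limma). *Foxq1* shares 3200 bp with *A530084C06Rik* on the opposite strand, and whether counting used the strand is not given in the sources used here, so reads of the pair cannot be told apart over that stretch.

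*Vwf* had 22583 normalized counts in wild-type 1 and 18306 in wild-type 2, against 7114 in *Foxq1* cKO 1 and 5398 in *Foxq1* cKO 2. Both wild-type samples were high and both *Foxq1* cKO samples low, with a wide gap between the groups. Group means were 20444.5 ± 3024 (SD, n = 2) and 6256 ± 1214 (SD, n = 2), so that *Foxq1* cKO samples held 30.6% of the wild-type level, a 3.27-fold difference. On the log2 scale this is -1.71 with a standard error of 0.187. The difference between the groups was larger than the differences within them, where the higher sample exceeded the lower one by 23.4% in wild-type and by 31.8% in *Foxq1* cKO. These values rest on 26801, 18362, 6535 and 5306 reads, so counting error was small beside the spread between samples.

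Among the 6 listed members, both *Foxq1* cKO samples lay below both wild-type samples in 5, and the groups overlapped in *Plat*. Of all 12472 genes tested, 18.03% had both *Foxq1* cKO samples below both wild-type samples and 17.95% had both above. At an unadjusted p under 0.05 in limma, 3.05% of all genes tested were lower and 2.17% were higher, 5.22% in either direction, and 0.00% had an adjusted p under 0.05. No gene passed adjustment in limma, where 651 genes had an unadjusted p under 0.05. DESeq2 on the recovered reads gave 59 genes at an adjusted p under 0.05 and 824 at an unadjusted p under 0.05, and edgeR gave 0 and 632. The limma count at an unadjusted p under 0.05 moved to 1569 without wild-type 2 and to 276 without *Foxq1* cKO 1. All 6 members had a negative log2 fold change, with a median of -0.42, while the median over all genes tested was 0.0086. Negative values were also common among 15 general endothelial markers, of which 13 had one, with a median of -0.23. Because the members were chosen with this contrast known, their count and their median are descriptions of the choice.

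**Figure D1:**
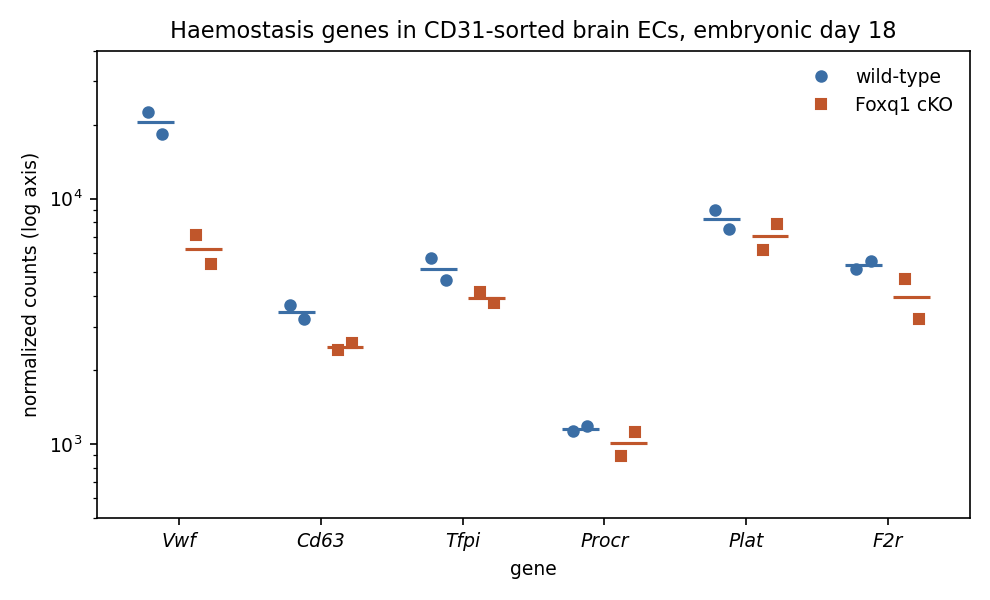
Normalized counts (log axis) of the 6 listed members in each sample of CD31-sorted brain ECs, with circles for wild-type samples, squares for *Foxq1* cKO samples and lines for group means (n = 2). *Vwf* shows the widest gap, from 18306 and above in wild-type to 7114 and below in *Foxq1* cKO, and the groups overlap in *Plat*.

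Levels of different genes were compared as normalized counts per kb of exon. In wild-type samples the order was *F2r* at 1608 ± 93.1 per kb (SD, n = 2), *Plat* at 1320 ± 171, *Vwf* at 1273 ± 188, *Tfpi* at 949 ± 141, *Cd63* at 937 ± 82.1 and *Procr* at 569 ± 17.9. The levels per kb of *Plat* and *Vwf* differed by less than their spread, and so did those of *Tfpi* and *Cd63*. In *Foxq1* cKO samples the mean level per kb of *Vwf* was 389, below the 495 of *Procr*, which was the lowest of the listed members in wild-type. This order held in *Foxq1* cKO 2 (336 per kb for *Vwf*, 550.0 for *Procr*), while in *Foxq1* cKO 1 the levels per kb were nearly equal (443 and 439.5). By group means per kb the other members had the same order in *Foxq1* cKO, from 1190.1 for *F2r* to 495 for *Procr*, but single samples differed. In *Foxq1* cKO 2, *Plat* (1265 per kb) was above *F2r* (968), and *Cd63* (701) was above *Tfpi* (685), as *Cd63* (879) was above *Tfpi* (849) per kb in wild-type 2. By its level per kb, *Vwf* ranked 591 and 760 among the genes in wild-type 1 and wild-type 2, and it ranked 2078 and 2724 in the *Foxq1* cKO samples.

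In the GRCm38 assembly (GENCODE M21), *Vwf* lies on chromosome 6 from 125546774 to 125686679 on the plus strand, with 16064 bp of exon sequence. The 6 listed members lie on 5 chromosomes. *Tfpi* (84432855 to 84476775, minus strand) and *Procr* (155751117 to 155755471, plus strand) share chromosome 2 and are 71274341 bp apart. *Plat* is on chromosome 8 from 22757727 to 22782844, *F2r* on chromosome 13 from 95601803 to 95618487 and *Cd63* on chromosome 10 from 128900989 to 128912822. None of the 6 overlapped another gene model in this annotation. *Cd63* has a processed copy, *Cd63-ps*, so the assignment of some of its reads is uncertain.

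Whether the level of *Vwf* followed that of general endothelial genes was examined within each sample. The ratio of *Vwf* to *Cdh5*, which encodes VE-cadherin, was 4.94 and 4.29 in wild-type samples and 1.49 and 1.12 in *Foxq1* cKO samples. Relative to *Pecam1*, the gene of the sorted antigen, it was 1.53 and 1.32 against 0.638 and 0.403. Both ratios were lower in both *Foxq1* cKO samples, and the ratio of *Vwf* to each of *Pecam1*, *Cdh5*, *Tek*, *Tie1*, *Cldn5* and *Kdr* was between 2.66-fold and 3.53-fold higher in wild-type. Such ratios do not compare *Vwf* with these genes in level, since they are not per length. In sorted bulk samples, fewer cells of a *Vwf*-expressing type and less *Vwf* RNA per cell cannot be told apart.

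*Cd63* encodes a tetraspanin of late endosomes that is also delivered to the membrane of Weibel-Palade bodies, and *Selp*, the gene of the adhesion receptor P-selectin, was not listed. *Cd63* had 3665 and 3238 normalized counts in wild-type samples and 2405 and 2583 in *Foxq1* cKO samples. The groups did not overlap, and the samples within each group were close to each other. The *Foxq1* cKO mean was 72.2% of the wild-type mean, a log2 fold change of -0.47 (standard error 0.189).

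The other cargo of the granules was described from a list of 11 genes, of which 7 were listed. *Edn1*, which encodes the vasoconstrictor endothelin-1, had 2585 and 1383 normalized counts in wild-type samples and 528 and 362 in *Foxq1* cKO samples. Both *Foxq1* cKO samples were low, and wild-type 1 was well above wild-type 2. *Edn1* differed by a log2 fold change of -2.11 (standard error 0.415, unadjusted p = 0.00218, adjusted p = 0.857 in limma), and the *Foxq1* cKO mean was 22.4% of the wild-type mean. On the recovered reads, the adjusted p of *Edn1* was 0.000187 in DESeq2 and 0.937 in edgeR, which are also the lowest and the highest over the 11 alternatives with all 4 samples. *Edn1* had an unadjusted p under 0.05 in 10 of these alternatives, and 0.0570 when each gene was tested without moderation.

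*Angpt2* encodes angiopoietin-2, an antagonistic ligand of the receptor TIE2 that is stored beside von Willebrand factor. It had 1823 and 1086 normalized counts in wild-type samples and 544 and 701 in *Foxq1* cKO samples. The groups did not overlap, although the wild-type samples were far apart. For *Angpt2* the log2 fold change was -1.19 (standard error 0.369, unadjusted p = 0.0179, adjusted p = 0.857 in limma). The unadjusted p was 0.0903 without wild-type 1, 0.0957 without *Foxq1* cKO 1 and 0.104 without moderation.

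The remaining 5 cargo genes had overlapping groups. *Ece1*, the gene of the enzyme that cleaves the endothelin precursor, had 10853 and 13927 normalized counts against 14454 and 13005 (log2 fold change 0.16, standard error 0.161). *Igfbp7* had 6752 and 5769 against 6498 and 4647 (log2 fold change -0.18, standard error 0.210). The direction turned for *Ece1* without wild-type 1 (-0.023, against 0.34 without wild-type 2) and for *Igfbp7* without *Foxq1* cKO 2 (0.058, against -0.43 without *Foxq1* cKO 1). Thus 2 of the 7 cargo genes were lower at an unadjusted p under 0.05 and 0 were higher. Of all genes tested, 3.05% were lower and 2.17% higher at this level, and the list was chosen with earlier results known. The median log2 fold change of the cargo genes was -0.18. The cargo median was -0.088 under quantile normalization, and with 1 sample left out it ran from -0.43 without *Foxq1* cKO 1 to 0.058 without *Foxq1* cKO 2, so its direction turned.

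**Figure D2:**
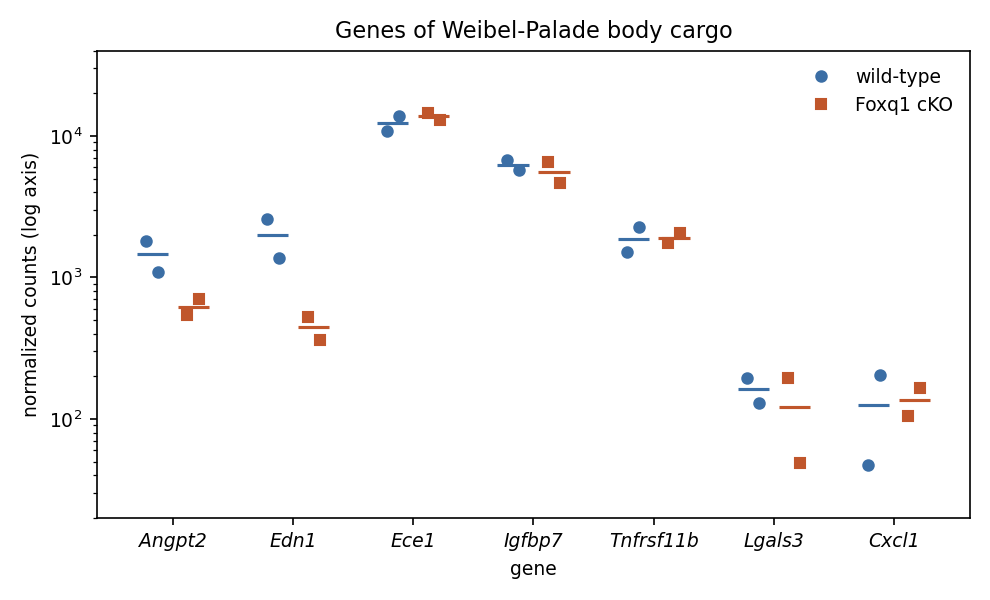
Normalized counts (log axis) of the 7 listed genes of Weibel-Palade body cargo other than *Vwf*, with circles for wild-type samples, squares for *Foxq1* cKO samples and lines for group means (n = 2). *Edn1* and *Angpt2* have both *Foxq1* cKO samples below both wild-type samples, and the other 5 genes overlap.

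Of 59 genes for the formation and exocytosis of the granules, 47 were listed. At an unadjusted p under 0.05, 3 were lower and 0 were higher, against 3.05% and 2.17% of all genes tested. The median log2 fold change of the 47 was -0.041, with 0.0020 under quantile normalization. With 1 sample left out it was -0.087 (without wild-type 2) to -0.14 (without *Foxq1* cKO 1). *Stx6*, a syntaxin of the trans-Golgi network and endosomes, had 2792 and 2609 normalized counts in wild-type samples and 1359 and 1676 in *Foxq1* cKO samples. The groups were well apart, with a log2 fold change of -0.84 (standard error 0.224, unadjusted p = 0.00942, adjusted p = 0.857 in limma). Without *Foxq1* cKO 1 its unadjusted p was 0.0653.

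*Ralb*, a small GTPase of the exocyst pathway, had 11755 and 13368 normalized counts against 9088 and 8927. *Unc13b*, a vesicle priming factor, had 546 and 629 against 206 and 317. In both genes the groups did not overlap, with log2 fold changes of -0.48 (standard error 0.133, unadjusted p = 0.0113) and -1.19 (standard error 0.466, unadjusted p = 0.0424), and both had an adjusted p of 0.857 in limma. The unadjusted p of *Ralb* was 0.0621 without wild-type 2, 0.0563 without *Foxq1* cKO 2 and 0.166 with eBayes without a trend. *Unc13b* was at or above 0.05 in each of the 4 fits that left out 1 sample, between 0.0553 without *Foxq1* cKO 2 and 0.177 without *Foxq1* cKO 1, and also with a replicate block (0.0544), in edgeR (0.0533) and without moderation (0.0677). The 2 most abundant genes of the list per kb were the vesicle budding GTPases *Arf1* and *Arf4*, whose groups overlapped (log2 fold changes 0.06 and 0.14) and whose direction turned with wild-type 2 left out (-0.0081 and -0.056). *Rab27a*, which encodes a GTPase of granule maturation, was not listed.

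Among the inhibitors of coagulation, *Tfpi* encodes tissue factor pathway inhibitor, which blocks the complex of tissue factor and factor VIIa. *Tfpi* had 5732 and 4641 normalized counts in wild-type samples and 4143 and 3739.5 in *Foxq1* cKO samples. The groups did not overlap, but the gap between them was smaller than the distance between the wild-type samples. For *Tfpi* this gave a log2 fold change of -0.39 (standard error 0.183), and the *Foxq1* cKO mean was 76.0% of the wild-type mean. Without wild-type 1 the log2 fold change of *Tfpi* was -0.24. *F3*, the gene of tissue factor itself, was not listed.

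*Procr* encodes the endothelial protein C receptor, which presents protein C to the complex of thrombin and thrombomodulin. It had 1130.0 and 1181 normalized counts in wild-type samples and 893 and 1117 in *Foxq1* cKO samples. The groups did not overlap by a narrow margin, since *Foxq1* cKO 2 was close to wild-type 1. At -0.21, the log2 fold change was smaller than its standard error of 0.281, and it was -0.05 without *Foxq1* cKO 1 and -0.37 without *Foxq1* cKO 2. Its partner *Thbd*, the gene of thrombomodulin, had the opposite arrangement, with 2559.9 and 2644 normalized counts in wild-type samples and 2934 and 3465 in *Foxq1* cKO samples. For *Thbd* the log2 fold change was 0.29 (standard error 0.193, unadjusted p = 0.179 in limma), and 0.17 without *Foxq1* cKO 2.

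Outside the members, 13 of 18 genes of the anticoagulant and protein C pathway were listed. At an unadjusted p under 0.05, 1 was lower and 0 were higher, against 3.05% and 2.17% of all genes tested. The median log2 fold change of the list was -0.23. This median was -0.12 under quantile normalization and depended on single samples, with -0.072 without wild-type 1, -0.0030 without wild-type 2 and 0.10 without *Foxq1* cKO 2. The lower gene here was *Gas6*, a vitamin K-dependent ligand of TAM receptors, at 1103 and 1652 normalized counts against 680.4 and 745. Both *Foxq1* cKO samples were low and close together (log2 fold change -0.92, standard error 0.324, unadjusted p = 0.0290, adjusted p = 0.857 in limma). Its unadjusted p was 0.140 without wild-type 2, 0.116 without *Foxq1* cKO 1, 0.0841 without *Foxq1* cKO 2, 0.0595 with eBayes without a trend and 0.0906 without moderation. The most abundant genes of this list per kb were *Anxa5*, encoding annexin A5 (log2 fold change -0.23, standard error 0.150), and *Pros1*, encoding protein S, a cofactor of activated protein C (-0.26, standard error 0.202). Neither had an unadjusted p under 0.05 in limma, but *Anxa5* had 0.0156 without moderation. *Pros1* rested on single samples, with a log2 fold change of -0.51 without wild-type 1 (unadjusted p = 0.0331 in limma) and of -0.0030 without wild-type 2 (unadjusted p = 0.988 in limma).

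*Plat* encodes tissue-type plasminogen activator. It had 8988 and 7483 normalized counts in wild-type samples and 6169 and 7897 in *Foxq1* cKO samples. *Foxq1* cKO 2 lay between the wild-type samples, so the groups overlapped, and the log2 fold change of -0.23 (standard error 0.184) was of the size of the spread within the groups. It ranged from -0.05 without *Foxq1* cKO 1 to -0.41 without *Foxq1* cKO 2. *Plau*, which encodes urokinase, was not listed.

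In the fibrinolysis list, 9 of 14 genes were listed and 0 passed an unadjusted p of 0.05 in limma in either direction, with a median log2 fold change of -0.088. Quantile normalization gave a median of -0.045, and leaving out 1 sample gave -0.12 (without wild-type 2) to -0.35 (without wild-type 1). Its most abundant genes per kb were *Nid1*, encoding the basement membrane protein nidogen-1 (log2 fold change -0.09, standard error 0.106), and *Eno1*, encoding an enolase that also binds plasminogen (-0.23, standard error 0.123). Under quantile normalization these were -0.016 and -0.12, while without moderation the unadjusted p of *Eno1* was 0.0411.

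*F2r* encodes PAR1, the main thrombin receptor of endothelial cells. It had 5146 and 5585 normalized counts in wild-type samples and 4711 and 3229.9 in *Foxq1* cKO samples. *Foxq1* cKO 2 was clearly the lowest, while *Foxq1* cKO 1 was near the wild-type samples. The *Foxq1* cKO mean was 74.0% of the wild-type mean, or -0.46 on the log2 scale (standard error 0.222). Leaving out *Foxq1* cKO 2 moved the log2 fold change of *F2r* to -0.19.

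Other protease-activated receptors and the G protein pathway behind them were represented by 12 of 15 genes, with 0 at an unadjusted p under 0.05 in limma and a median log2 fold change of -0.18, which was -0.33 without wild-type 2 and -0.017 without *Foxq1* cKO 2. *F2rl1*, which encodes PAR2, was not listed. *Rhoa*, a GTPase downstream of thrombin, differed by -0.06 on the log2 scale (standard error 0.123), and *Gna11*, a G protein alpha subunit, by -0.30 (standard error 0.191). *Rhoa* turned direction under quantile normalization (0.059), and *Gna11* was at -0.18 without *Foxq1* cKO 1 and without wild-type 2.

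Factor VIII is the plasma partner of von Willebrand factor, and its gene *F8* was not listed. *Lman1* and *Mcfd2* encode the cargo receptor that carries factors V and VIII from the endoplasmic reticulum. *Lman1* had 2522 and 3031 normalized counts against 2513 and 3222, with overlapping groups (log2 fold change 0.04, standard error 0.222), and its direction turned without *Foxq1* cKO 2 (-0.14, against 0.22 without *Foxq1* cKO 1). *Mcfd2* had 3793 and 4130.4 against 3348 and 3024, without overlap (log2 fold change -0.31, standard error 0.176, unadjusted p = 0.124 in limma). In the list of procoagulant factors, 10 of 23 genes were listed and 0 had an unadjusted p under 0.05 in limma, with a median log2 fold change of 0.023. That median lay between -0.15 (genes with a mean of at least 50) and 0.053 (quantile normalization), and between -0.19 (without *Foxq1* cKO 2) and 0.30 (without *Foxq1* cKO 1), so it had no stable direction. Fibrinogen genes and most genes of circulating coagulation factors were among those not listed.

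The machinery that processes and clears von Willebrand factor was followed with 25 genes, of which 19 were listed. *Furin*, the protease that removes the propeptide, had 814 and 547 normalized counts against 515 and 591, with overlapping groups (log2 fold change -0.27, standard error 0.385). Its direction rested on 1 sample, since the log2 fold change was 0.011 without wild-type 1 and -0.56 without wild-type 2. *Adamts13*, the gene of the protease that trims the multimers in plasma, was not listed. At an unadjusted p under 0.05, 1 gene was lower and 0 were higher, against 3.05% and 2.17% of all genes tested. The median log2 fold change of the list was -0.13. It was -0.043 under quantile normalization, -0.21 without wild-type 1 and -0.033 without either wild-type 2 or *Foxq1* cKO 2. The lower gene was *Calr*, the gene of the chaperone calreticulin, at 11234 and 13059 normalized counts against 9190.4 and 9563 (log2 fold change -0.37, standard error 0.138, unadjusted p = 0.0358, adjusted p = 0.857 in limma). Its groups did not overlap, and its unadjusted p was 0.142 under quantile normalization, 0.264 with eBayes without a trend, 0.0813 without moderation, and 0.174, 0.136 and 0.0943 without wild-type 2, *Foxq1* cKO 1 and *Foxq1* cKO 2. *Pdia3*, a disulfide isomerase of the endoplasmic reticulum and the most abundant gene of the list per kb, differed by -0.06 on the log2 scale (standard error 0.0966), and by 0.013 under quantile normalization.

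Endothelial cells also restrain platelets through nitric oxide, prostacyclin and ectonucleotidases. In this list 12 of 17 genes were listed, 0 had an unadjusted p under 0.05 in limma, and the median log2 fold change was -0.16. It was -0.054 under quantile normalization and turned direction without *Foxq1* cKO 1 (0.029) and without *Foxq1* cKO 2 (0.016). The platelet receptor subunit gene *Gp1ba*, whose product binds von Willebrand factor, was not listed. *Esam* and *Pecam1*, adhesion molecules that restrain platelets and the most abundant genes of the list per kb, had log2 fold changes of -0.18 (standard error 0.132) and -0.23 (standard error 0.141). Without *Foxq1* cKO 1 these were -0.049 and -0.092, and without *Foxq1* cKO 2 they were -0.30 and -0.36.

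Of 35 genes of factors known to act on the *VWF* promoter or on haemostasis genes, *Foxq1* not counted, 34 were listed. Of these, 0 were lower and 1 was higher at an unadjusted p under 0.05, against 3.05% and 2.17% of all genes tested. The median log2 fold change of the list was 0.043. The direction of this median turned in DESeq2 and edgeR (-0.017 in both), without wild-type 2 (-0.058) and without *Foxq1* cKO 1 (-0.13). The higher gene was *Irf1*, an interferon-responsive factor, at 232 and 382 normalized counts in wild-type samples and 785 and 917 in *Foxq1* cKO samples. Both *Foxq1* cKO samples were high and the groups were well apart (log2 fold change 1.51, standard error 0.434, unadjusted p = 0.0130, adjusted p = 0.857 in limma). Its unadjusted p was 0.0565 without *Foxq1* cKO 1, 0.0905 without *Foxq1* cKO 2 and 0.0569 without moderation. The immediate-early genes *Jun* and *Fos*, the most abundant of the list per kb, had log2 fold changes of 0.08 (standard error 0.0998) and -0.30 (standard error 0.134). The unadjusted p of *Jun* was 0.0388 without moderation. *Fos* had an unadjusted p of 0.0231 in limma without wild-type 2, and of 0.332 without wild-type 1, where its log2 fold change was -0.16.

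Over all haemostasis lists together, members and *Foxq1* not counted, 162 of 216 genes were listed, of which 7 were lower and 1 was higher at an unadjusted p under 0.05, a level at which 3.05% of all genes tested were lower and 2.17% higher. None of the 162 passed adjustment over all genes tested in limma. Both *Foxq1* cKO samples were below both wild-type samples in 44 of the 162 and above both in 22. Of all genes tested, 18.03% and 17.95% had these arrangements. Among the 15 endothelial markers, 8 had the first arrangement and 1 had the second. The median log2 fold change of the 162 was -0.085. These lists were chosen with earlier results of these data known, so the counts are a description and not a test.

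**Figure D3:**
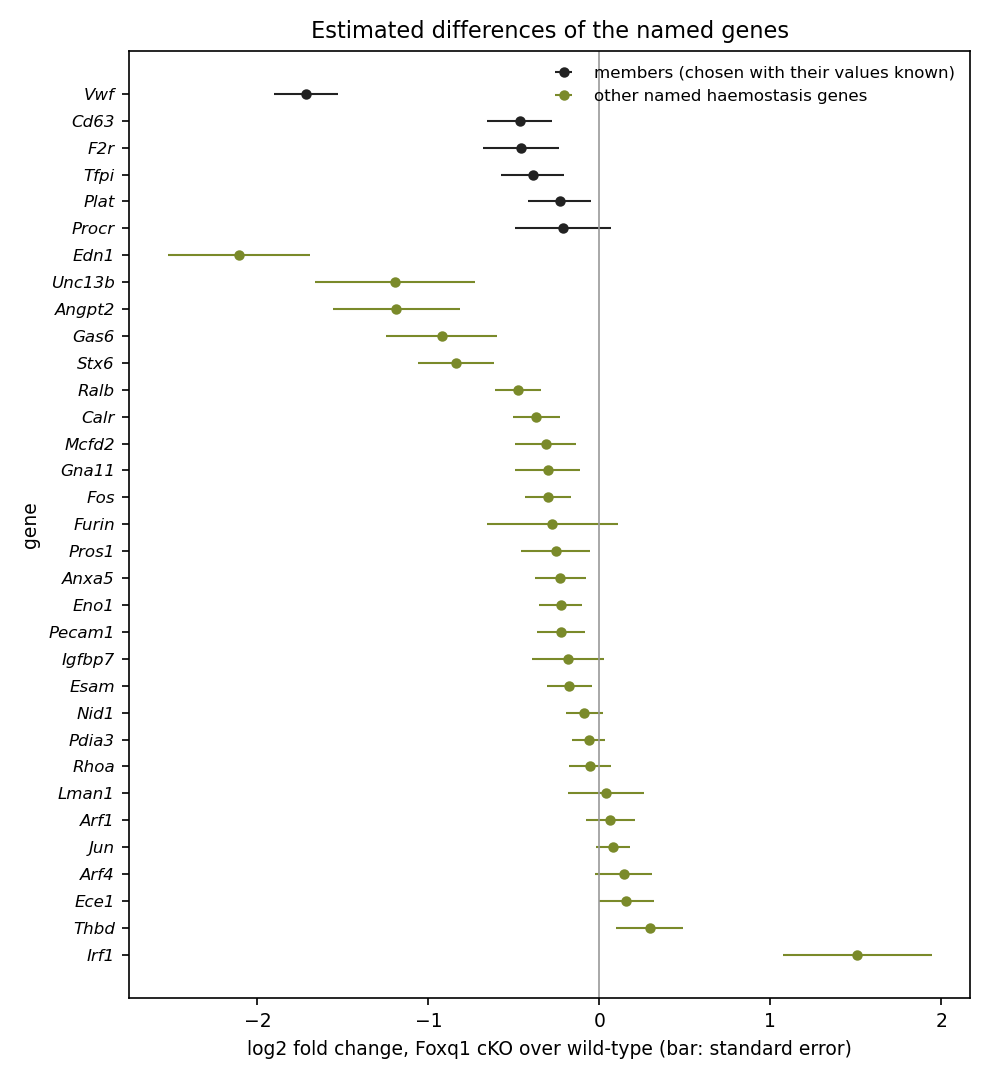
Log2 fold change of *Foxq1* cKO over wild-type (horizontal axis, points) with its standard error (bars) from limma, for the 6 listed members and 27 other haemostasis genes named by rule. *Vwf* at -1.71 and *Edn1* at -2.11 lie farthest to the left of their groups, and *Irf1* at 1.51 farthest to the right.

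The genes with the profile closest to that of *Vwf* over the 4 samples were found by the root mean square difference of centred log2 values, among 11402 other genes with a mean of at least 50. They were *Cmip* (0.0453), *Arl4c* (0.0975), *Dscaml1* (0.127), *Kcne1l* (0.142) and *Tnnt1* (0.163). *Cmip*, the closest, had 692 and 596 normalized counts in wild-type samples and 232 and 179 in *Foxq1* cKO samples. The order of its samples was that of *Vwf*, with wild-type 1 the highest and *Foxq1* cKO 2 the lowest, which follows from how it was chosen. *Kcne1l* had 1426 and 1181 against 552 and 419. With 4 samples, many unrelated genes can share a profile.

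The labelled cell type was checked against markers. All 15 endothelial markers were listed, and their summed normalized counts were 455559 and 415661 in wild-type samples and 358289 and 405793 in *Foxq1* cKO samples. Both *Foxq1* cKO samples were below both wild-type samples, at 87.7% of the wild-type mean. The most abundant marker was *Cldn5*, the gene of a tight junction protein, at 151977 and 136639 against 126706 and 134826. At an unadjusted p under 0.05, 2 markers were lower and 0 were higher, against 3.05% and 2.17% of all genes tested. The median log2 fold change of the markers was -0.23. The part of this difference in the lower *Vwf* values was not tested, and the ratios of *Vwf* to single endothelial genes within samples are given with *Vwf*.

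Because *Vwf*, *Edn1* and *Angpt2* differ between vessel types, markers of these were summed as well. Venous and large-vessel markers other than *Vwf*, 12 of 16 listed, gave 94280.3 and 104300.0 normalized counts in wild-type samples and 97556 and 105043 in *Foxq1* cKO samples, so the groups overlapped. Their most abundant gene was *Aplnr* (29495 and 38079 against 29563.5 and 32017), without which the sums were 64785 and 66220.2 against 67993 and 73026, higher in both *Foxq1* cKO samples. In this list 0 were lower and 1 was higher at an unadjusted p under 0.05, against 3.05% and 2.17% of all genes tested. *Ackr1*, *Lcn2*, *Selp* and *Sele* were not listed. Arterial markers, 18 of 20 listed with *Edn1* among them, gave 28614 and 24887 against 23387.5 and 23663, so both *Foxq1* cKO samples were below both wild-type samples. *Gja4* was the most abundant of them (5362 and 5503 against 5008.9 and 5000.96), with 1 lower gene, *Edn1* itself, and 0 higher. *Gkn3* and *Alpl* were not listed. Capillary markers, 11 of 11 listed, gave 196742 and 190170.0 against 178343 and 192075, with *Spock2* the most abundant (52634 and 55646 against 54094 and 66962), 2 lower genes and 1 higher, and the groups overlapped in the sum. Without *Spock2* the capillary sums were 144109 and 134524 against 124249 and 125114, lower in both *Foxq1* cKO samples. What part these vessel-type sums had in the *Vwf*, *Edn1* and *Angpt2* values was not tested. The median log2 fold changes of the venous, arterial and capillary lists were -0.20, -0.21 and 0.15.

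Megakaryocytes and platelets also make von Willebrand factor, and *Pecam1* is present on them. Of 19 platelet and megakaryocyte markers 8 were listed, and those missing from the table included *Itgb3*, *Gp1ba*, *Gp1bb*, *Gp5*, *Gp6*, *Treml1*, *Tubb1*, *Nrgn*, *Alox12* and *F2rl2*. The listed ones summed to 5667 and 7425 normalized counts in wild-type samples and 6660.4 and 6457 in *Foxq1* cKO samples, with *Gng11*, which endothelial cells also express, at 5000.1 and 5595 against 5383 and 5150.5. Without *Gng11* the sums were 667 and 1830.4 against 1277 and 1306. These sums overlapped between the groups, and their part in the *Vwf* values was not tested. The list had a median log2 fold change of 0.032, with 0 genes at an unadjusted p under 0.05 in limma.

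Transcripts of other cell types were present in the sort. Pericyte and smooth muscle markers, 11 of 15 listed, summed to 162705 and 159416 normalized counts against 166946 and 151879, led by *Rgs5* (91163 and 89164 against 93044 and 89248), with *Acta2*, *Tagln*, *Myh11* and *Cnn1* not listed. Erythroid markers, 8 of 12 listed, summed to 21681.5 and 16433 against 16770 and 21132, led by *Hba-a1* (11927 and 9021 against 9108 and 11133), with *Hbb-bh1*, *Hbb-y*, *Klf1* and *Gata1* not listed. Both sums overlapped between the groups, and 0 genes of either list had an unadjusted p under 0.05 in limma (median log2 fold changes -0.027 and -0.082). Microglia and macrophage markers, 16 of 18 listed without *Lyve1* and *Cd163*, summed to 10878 and 14655 against 8519 and 9365, led by *Csf1r* (3365 and 2579 against 1732 and 1587). This sum was lower in both *Foxq1* cKO samples, at 70.0% of the wild-type mean, but without *Csf1r* the groups overlapped (7513 and 12076 against 6787 and 7778). The list had 1 lower and 0 higher genes at an unadjusted p under 0.05, against 3.05% and 2.17% of all genes tested. The median log2 fold change of the list was -0.21, and its part in the differences of the haemostasis genes was not tested.

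Neuron and neural progenitor markers, 19 of 24 listed with *Tbr1*, *Eomes*, *Gad1* and *Olig2* among those missing, summed to 29493 and 30409 normalized counts against 28511 and 29606. *Nes*, their most abundant gene, had 5293 and 5639 against 8608 and 6317, higher in both *Foxq1* cKO samples (unadjusted p = 0.0641 in limma). Without *Nes* the sums were 24199 and 24770.2 against 19903 and 23289, lower in both *Foxq1* cKO samples, with 12 of the 19 genes at a negative log2 fold change, and the part of this in other results was not tested. Fibroblast and meninges markers, 6 of 10 listed without *Dcn*, *Lum*, *Slc47a1* and *Foxc2*, summed to 8992 and 10016 against 9591 and 5938, led by *Col3a1* (6291 and 5132 against 5173 and 3486). The groups overlapped in both full sums, and 0 genes of either list had an unadjusted p under 0.05 in limma (median log2 fold changes -0.32 and -0.19).

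Promoter sequences from RefSeq (GRCm38.p6) were found for 6 of the 8 members, 4 of them among the listed ones, and for *Edn1*. *Vwf* and *Plat* had no entry. The 250 bases before each transcription start were searched on both strands for GATAA (the core bound by GATA factors), GGAA (ETS factors), TGTTTA (forkhead factors), TGACTCA (AP-1) and GTTTC (named for FOXQ1 by the study, and added last). GGAA was in 7 of the 7 member windows (*Tfpi* has 2), as it was in 93.44% of the 32817 windows of all genes. GATAA was in 1 of the 7, a *Tfpi* window, and in 22.59% of all windows, and TGACTCA was in 2 of the 7 and in 4.46% of all windows. TGTTTA was in 0 of the 7 and in 12.03% of all windows, which says only that these letters are not in these windows. GTTTC was in 5 of the 7 and in 39.71% of all windows.

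The windows of *F2r* and *Procr* are shown because they hold TGACTCA, and that of *Edn1* because it had the lowest log2 fold change of the cargo genes. Capitals mark the matches of GGAA, of TGACTCA and of GTTTC on either strand. The *F2r* window is chr13:95618467-95618716 on the minus strand, the *Procr* window chr2:155750967-155751216 on the plus strand and the *Edn1* window chr13:42301226-42301475 on the plus strand, each read 5′ to 3′ on the strand of its gene and directly upstream of its RefSeq start.
F2r: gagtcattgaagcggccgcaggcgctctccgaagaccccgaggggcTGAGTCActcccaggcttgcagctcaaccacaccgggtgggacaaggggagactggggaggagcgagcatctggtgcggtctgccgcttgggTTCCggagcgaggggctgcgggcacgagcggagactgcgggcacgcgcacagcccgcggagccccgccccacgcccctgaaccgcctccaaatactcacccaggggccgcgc
Procr: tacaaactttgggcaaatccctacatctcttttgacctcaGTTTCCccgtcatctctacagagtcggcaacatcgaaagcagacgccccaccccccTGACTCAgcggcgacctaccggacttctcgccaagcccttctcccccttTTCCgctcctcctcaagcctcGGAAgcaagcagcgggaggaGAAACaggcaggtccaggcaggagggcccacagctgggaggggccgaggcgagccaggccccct
Edn1: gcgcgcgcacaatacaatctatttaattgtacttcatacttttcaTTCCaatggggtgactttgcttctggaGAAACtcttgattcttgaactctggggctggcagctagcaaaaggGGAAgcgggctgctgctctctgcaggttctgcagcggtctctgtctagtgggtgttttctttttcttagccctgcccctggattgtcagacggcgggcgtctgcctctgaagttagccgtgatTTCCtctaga

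In the *F2r* window TGACTCA lies on the opposite strand, starting 204 bases before the start, and in the *Procr* window on the same strand, starting 154 bases before it. GTTTC is absent from the *F2r* window, lies 210 bases (same strand) and 64 bases (opposite strand) before the start of *Procr*, and lies 178 bases before that of *Edn1* on the opposite strand. A match is a description of the letters and not a bound site.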

How the data were processed

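RNA of CD31-sorted cells was sequenced on an Illumina platform. The labels give 2 ug of total RNA extracted with Trizol, and the study names Smart-seq2, a protocol for full-length cDNA. The submitters' processing notes name mm9, Bowtie2 2.2.3, TopHat2 2.0.12 and HTSeq 0.6.0, with no roles. The authors deposited a signal per gene in 1 table without coordinates, which is read counts divided by 1 size factor per sample. All values (100% in each sample, tolerance 0.01 reads) were whole multiples of the value of 1 read, with size factors of 1.19, 1.00, 0.919 and 0.983, so reads could be recovered. The smallest count was 1 read in each sample, and no gene held fewer than 21 over the 4, so a symbol with no read in 1 sample may be missing. The 1207361 lines repeat identical values and were reduced to 12693 symbols. Exon lengths and coordinates came from GENCODE M21 (GRCm38), which held 12678 of 12701 identifiers.

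The main test was limma 3.58.1 (lmFit, eBayes with trend) in R 4.3.3 on log2(value + 1), with Benjamini-Hochberg adjustment over 12472 genes with a mean of at least 10. As alternatives, DESeq2 1.42.0 (59 genes at an adjusted p under 0.05) and edgeR 4.0.16 (0 genes, with 632 at an unadjusted p under 0.05) took the recovered reads. The median standard error was 0.496, and edgeR's biological coefficient of variation was 50.2%. Other alternatives were pseudocounts of 0.1 and 5, no filter, a mean of at least 50, quantile normalization, TMM, eBayes without trend, no moderation, a replicate block and each sample left out. The main test, DESeq2 and edgeR were first run on simulated data, and the outcome is not reported here. Tables and figures were made with Python 3.11.15, pandas 2.3.3 and matplotlib 3.10.9.

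The members and gene lists were chosen with earlier results of these data known. Named were all members, *Foxq1*, list genes with an unadjusted p under 0.05, the 2 most abundant genes per kb of each list, textbook partners of members, and the 5 genes closest to *Vwf*. Some genes of the lists are not reported here by name. Symbols not in the mouse annotation tables were dropped from the lists.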

Additional observations from a re-analysis of the deposited data

How the results depend on the processing

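The log2 fold change of *Vwf* lay between -1.71 and -1.61 over 11 alternatives with all 4 samples and between -1.91 and -1.52 with 1 sample left out, where the lone sample of a group is assumed to vary like the other group. For the 6 listed members, all 66 values with all samples moved by no more than the SD inside groups. With 1 sample left out, *F2r* reached -0.19 and *Procr* -0.05. Genes at an unadjusted p under 0.05 numbered 651, between 592 and 824 with all samples and between 276 (without *Foxq1* cKO 1) and 1569 (without wild-type 2) with 1 left out. At an adjusted p under 0.05, limma gave 0 genes, edgeR 0 and DESeq2 59. Why these counts differ between methods was not tested. Without moderation, where limma tests each gene with its own spread alone, *Foxq1* kept its log2 fold change of -4.47 but had an unadjusted p of 0.0649. A replicate block gave 693 genes at an unadjusted p under 0.05 and 0 at an adjusted p under 0.05, so it changed no adjusted call, and the numbers were not shown to pair samples (correlation of deviations 0.0325 over 2 pairs). Other named genes that crossed the threshold are given with their values. Of 110 list medians 9 moved by more than the SD inside groups, among them that of the members (-0.33 under quantile normalization), and with 1 sample left out 26 of 40. The median gene held between 438 and 550 reads, and depth limits genes far below it.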

Other observations

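Among capillary markers, *Car4* had 1496.5 and 3422 normalized counts in wild-type samples and 7106 and 9529.9 in *Foxq1* cKO samples, and both *Foxq1* cKO samples were higher. The capillary list as a whole went both ways, with 2 lower and 1 higher of 11 genes at an unadjusted p under 0.05. Its log2 fold changes ran from -0.75 to 1.86, and its sum without *Spock2* was lower in both *Foxq1* cKO samples. *Erg* and *Gata2*, textbook regulators of *VWF* that no rule above named, had 1432 and 1478 against 1292 and 1371 and 817 and 338 against 378 and 968, and the groups of *Gata2* overlapped.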
